A study of Mus musculus with 12 samples.

Results

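The diaphragm and the gastrocnemius of *Cox6a2* knockout (KO) mice were compared with each other, the diaphragm being the sheet of muscle that drives breathing and the gastrocnemius a large limb muscle of the calf. The comparison was made over 6 of the 12 arrays of the series, chosen by their labels alone: 3 of KO diaphragm and 3 of KO gastrocnemius, with no wild-type (WT) array in the contrast. The study asked what the loss of *Cox6a2*, the muscle form of subunit VIa of cytochrome *c* oxidase, does to skeletal muscle. Both groups came from male C57Bl6 mice aged 10 to 12 weeks and both carry the same deletion, so that genotype does not differ within the contrast. A response to the deletion that differs between the muscles would be part of the difference and cannot be told apart from it. RNA was hybridised to mouse Gene 1.0 ST arrays, and every value below is a log2 signal made by the authors with RMA, on which a step of 1 is a factor of 2. Differences are KO diaphragm minus KO gastrocnemius for 19938 genes. A gene was called higher or lower at a Benjamini-Hochberg adjusted p under 0.05 in limma, and every adjusted p below is from that fit. The labels call the replicates biological but do not say which arrays share a mouse, and 3 arrays per group limit the precision.

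Skeletal muscle is a mosaic of fibers. Slow fibers and fast oxidative fibers are rich in mitochondria, burn fatty acids and lactate and resist fatigue, whereas fast glycolytic fibers hold the IIB myosin heavy chain, break down glycogen and tire soon. Each fiber type uses its own forms of the contractile and calcium-handling proteins. The mouse diaphragm works without pause and is known for its oxidative fibers, is derived from muscle precursors of the neck, and is covered on both faces by mesothelium, while the mouse gastrocnemius is largely made of fast glycolytic fibers.

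The targeted gene was equally dim in both muscles. *Cox6a2* had log2 signals of 7.02, 6.71 and 6.94 in KO diaphragm and of 6.71, 7.18 and 6.91 in KO gastrocnemius, against 11.84, 11.65 and 11.73 on the WT gastrocnemius arrays. The KO groups overlapped and differed by -0.04 (SE 0.13, adjusted p = 0.843). Both groups were muscle by their markers: *Acta1*, skeletal actin, had a mean of 13.85 in KO diaphragm and 13.92 in KO gastrocnemius, and the mean signal over 15 skeletal muscle markers was 12.07 to 12.25 on the diaphragm arrays and 12.28 to 12.37 on the gastrocnemius arrays. The arrays of KO diaphragm correlated with one another at 0.990 to 0.992 over all genes, those of KO gastrocnemius at 0.994 to 0.995, and arrays of the 2 muscles at 0.963 to 0.974. The arrays labelled WT diaphragm correlated with KO gastrocnemius (0.988 to 0.991) more closely than with KO diaphragm (0.963 to 0.975), which goes against their label, and they do not enter the contrast.

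**Figure D1:**
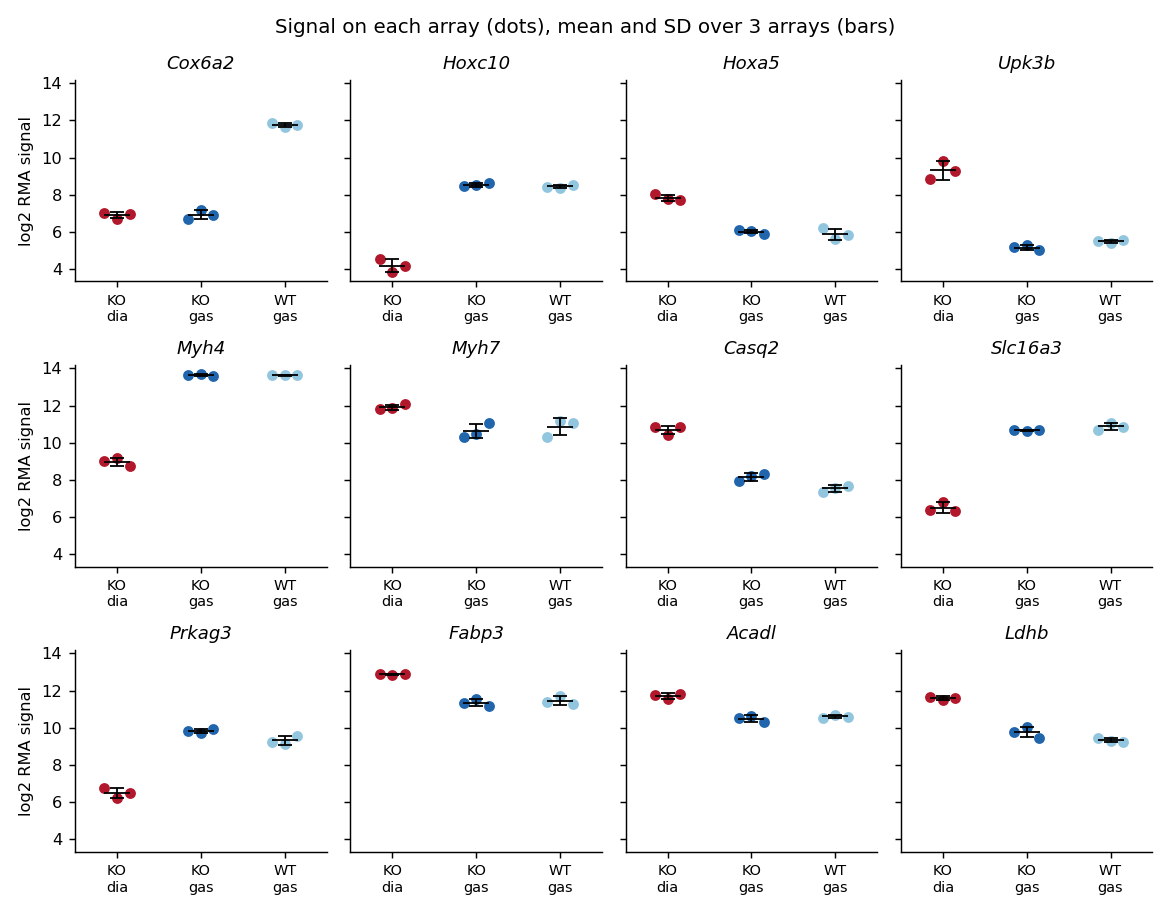
Log2 RMA signal (vertical axes) of 12 genes on the arrays of KO diaphragm (KO dia), KO gastrocnemius (KO gas) and, for reference, WT gastrocnemius (WT gas); dots are arrays, and bars are the mean and SD of 3 arrays. *Cox6a2* is near 6.9 in both KO groups, and for the other 11 genes the KO diaphragm arrays do not overlap those of KO gastrocnemius.

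The 2 muscles differed widely. Of 19938 genes, 3532 (17.7%) were called higher and 2302 (11.5%) lower in KO diaphragm, together 29.3% of all genes. The median size of a called difference was 1.43-fold, and 587 genes (2.94%) were higher and 287 (1.44%) lower by over 2-fold. The 3 arrays of one muscle did not overlap those of the other in 44.8% of genes. The share of higher genes among those called, 60.5%, depended on how the arrays were scaled. After median centring, which moved the median difference of all genes from 0.02 to -0.11, it was 35.2% (2379 higher and 4388 lower), and after quantile normalization, with a median of -0.02, it was 48.7% (2750 and 2898). Directions of gene groups are therefore given with their value under both scalings where these change it.

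Extreme genes were ranked among called genes without overlap, with predicted, olfactory receptor and immunoglobulin chain genes skipped. The 15 lowest genes did not belong to 1 group. *Mss51*, a mitochondrial protein gene of muscle, had log2 signals of 5.28, 5.69 and 5.52 in KO diaphragm and of 10.80, 10.69 and 11.87 in KO gastrocnemius, a 49.4-fold difference (log2 -5.63, SE 0.27, adjusted p = 3.11e-06). *Mettl21c*, a methyltransferase gene of muscle, was at 4.16, 3.89 and 4.11 against 8.14, 7.69 and 8.72. *Smox*, which encodes spermine oxidase, was at 7.24, 7.04 and 6.92 against 11.17, 11.11 and 11.12. All 3 genes had arrays far apart between the muscles, and the gastrocnemius array of replicate 3 was the highest for *Mss51* and *Mettl21c*. The 15 lowest genes also held *Myh4* and *Actn3* of the fast fiber list, *Hoxc10*, and the metabolic genes *Slc16a3*, *Prkag3* and *Pfkfb3*, all described below, together with *Odf3l2* (-3.86), *Tlcd4* (-3.76), *Ostn* (-3.39), which encodes the secreted peptide musclin, *Rasd2* (-3.37), *Gdap1* (-3.35) and *Tspan8* (-3.32).

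Of the 15 highest genes, ranked with immunoglobulin chain genes skipped as above, 9 were on lists of cell types other than muscle. *Gpm6a* (4.17), *Upk3b* (4.15), *Upk1b* (3.88), *Lrrn4* (3.56), *Krt19* (2.71) and *Msln* (2.70) were mesothelial markers. *Jchain* (4.63), the joining chain of secreted antibodies, and *Cxcl13* (3.56), a chemokine that attracts B cells, were on the list of B and plasma cells, and *Mmrn1* (3.08) on that of lymphatic endothelium. *Tecrl* (3.79), known for its expression in heart, had signals of 8.72, 8.36 and 8.81 in KO diaphragm and of 4.48, 4.56 and 5.46 in KO gastrocnemius, with no overlap. *Pkhd1l1* (3.68), *C4b* (3.10), a complement gene, *Alox15* (3.07), a lipoxygenase, *Slc16a7* (2.85), a carrier of pyruvate and lactate, and *Cybb* (2.74), a subunit of the phagocyte oxidase, completed the 15. In bulk tissue, more cells of a type and more RNA per cell cannot be told apart.

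**Figure D2:**
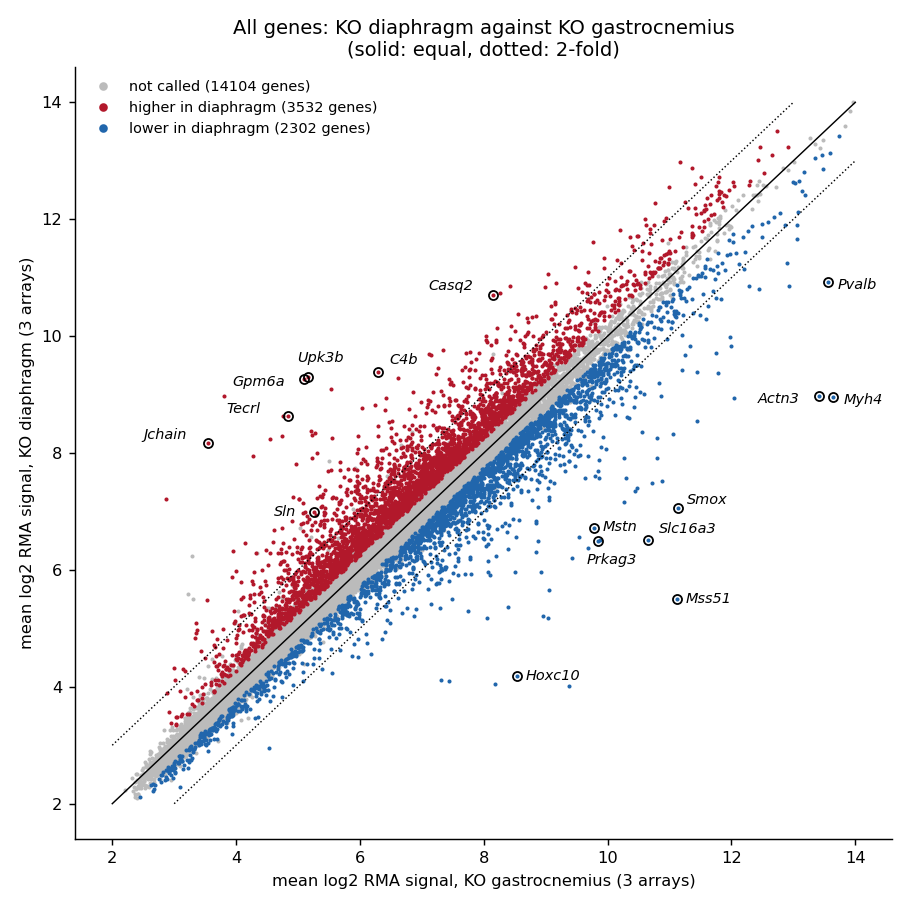
Mean log2 RMA signal of 19938 genes in KO gastrocnemius (horizontal axis) and KO diaphragm (vertical axis), 3 arrays each; dots are genes, coloured by their call, the solid line marks equal signal and the dotted lines a 2-fold difference. *Myh4*, *Actn3* and *Pvalb* are among the brightest genes of gastrocnemius and lie far below the line, while *Upk3b*, *Gpm6a* and *Jchain* are dim in gastrocnemius and lie far above it.

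The contractile genes split by fiber type. Of 14 genes of fast glycolytic fibers, 12 were lower and 1 was higher in KO diaphragm (median log2 difference -0.94), and of 16 genes of slow fibers 13 were higher and none was lower (median 0.63), against a median of 0.02 over all genes. The difference was greatest in *Myh4*, the IIB myosin heavy chain, with log2 signals of 8.99, 9.15 and 8.74 in KO diaphragm and of 13.63, 13.69 and 13.60 in KO gastrocnemius. No diaphragm array came near a gastrocnemius array, and the difference was 25.7-fold (log2 -4.68, SE 0.11, adjusted p = 1.05e-07). *Actn3*, the alpha-actinin of fast fibers, was at 8.14, 9.20 and 9.59 against 13.44, 13.40 and 13.42 (log2 -4.44, SE 0.30). Its spread was wider in diaphragm, where replicate 1 lay lowest. The other fast genes were lower by less: *Mylk4* by -3.10, *Mylk2*, the kinase of the skeletal myosin light chain, by -2.41, *Mybpc2* by -2.08 and *Myoz1* by -1.64.

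The slow, IIX and IIA myosin heavy chains were higher in KO diaphragm. *Myh7*, the slow type I chain, had signals of 11.79, 11.87 and 12.07 in KO diaphragm and of 10.33, 10.49 and 11.04 in KO gastrocnemius (2.44-fold, log2 1.29, SE 0.17, adjusted p = 0.000606). *Myh1*, the IIX chain, was at 13.25, 13.21 and 13.25 against 12.48, 12.43 and 12.47, which is 1.71-fold. *Myh2*, the IIA chain of fast oxidative fibers, was at 12.92, 13.01 and 13.10 against 12.37, 12.42 and 12.51, which is 1.49-fold. None of these 3 genes overlapped between the muscles. By the RefSeq annotation the genes *Myh3*, *Myh2*, *Myh1*, *Myh4*, *Myh8* and *Myh13* lie in this order on chromosome 11, so that *Myh1* (0.77) and *Myh4* (-4.68) are direct neighbours with opposite calls. *Myh3*, the embryonic chain (-0.42), and *Myh13* (-0.43) were lower, and *Myh8*, the perinatal chain, had a difference of -0.12 that was not called.

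The 15 pairs listed each set a fast or glycolytic form of a protein beside a slow or oxidative form. The slow or oxidative form was called higher in 15 and the fast or glycolytic form lower in 12. In 14 pairs the slow or oxidative form had the more positive difference. The exception was the pair of *Myh1* and *Myh2*, both of them higher. Among the pairs the slow troponin T gene *Tnnt1* was higher by 1.29 while *Tnnt3* had -0.13 (adjusted p = 0.257), *Myoz2* was higher by 1.28 while *Myoz1* was lower by -1.64, and the slow regulatory light chain *Myl2* was higher by 1.06 while *Mylpf* was lower by -0.96. Differences of some fast genes were small and moved with the scaling: *Tnni2* (-0.40), *Tnnc2* (-0.31) and *Tpm1* (-0.36) lost their calls after quantile normalization (adjusted p = 0.158, 0.568 and 0.286). The call of *Tnni1*, the slow troponin I (0.64, adjusted p = 0.0256), was lost without diaphragm replicate 3, gastrocnemius replicate 1 or gastrocnemius replicate 2 (adjusted p = 0.0754, 0.0926 and 0.0848). That of *Tnnc2* was lost without gastrocnemius replicate 1 (adjusted p = 0.0561).

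**Figure D3:**
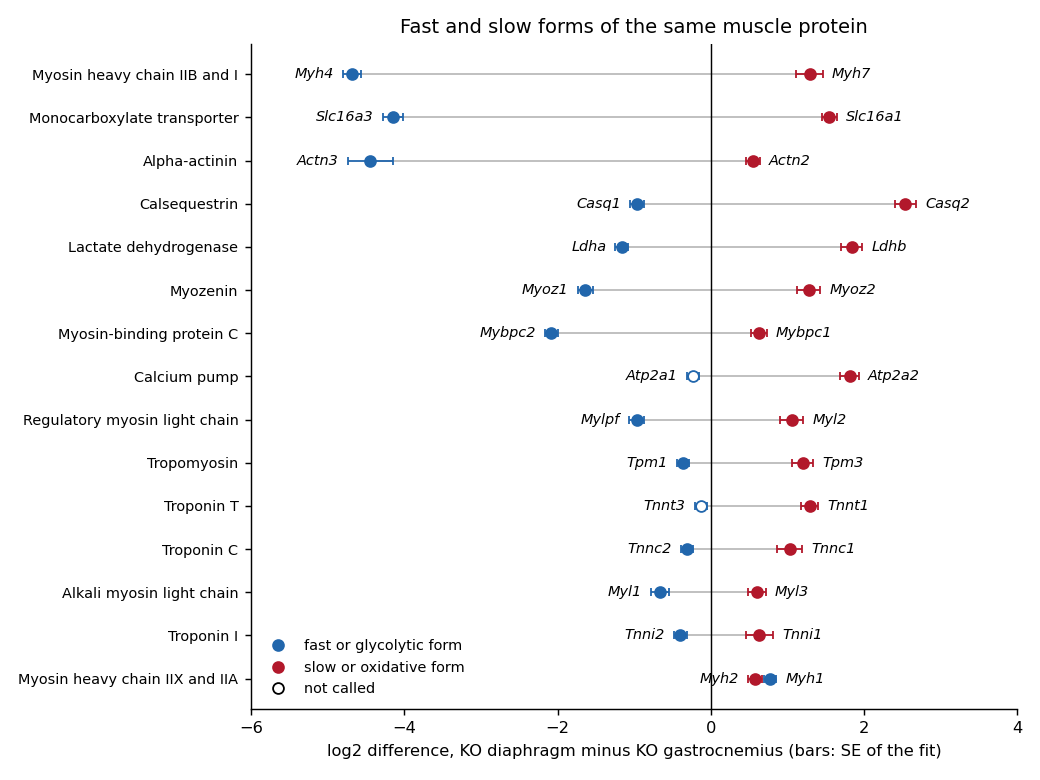
Log2 difference, KO diaphragm minus KO gastrocnemius (horizontal axis), for the fast or glycolytic form (blue) and the slow or oxidative form (red) of 15 muscle proteins (rows); bars are the SE of the fit over 3 arrays per group, and open points were not called. Every slow or oxidative form lies to the right of 0, and the fast or glycolytic forms lie to the left except *Myh1*.

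Some promoters of genes on the 2 sides were read for patterns of letters related to sites of known transcription factors. They are RefSeq windows of build GRCm38.p6, from 250 bases before to 50 bases after the annotated start, written in the direction of the gene. Capitals in the first 4 mark matches on either strand to CAGCTG, the E-box form preferred by the MyoD family, to the core of the MEF2 element, and to AAGGTCA, a site of nuclear receptors such as the estrogen-related receptors. No matches overlapped. *Myh4* and *Phka1*, a subunit of glycogen phosphorylase kinase, are shown for the genes that were lower in KO diaphragm, and *Ldhb*, *Acadm* and *Hadhb* for those that were higher. In the *Hadhb* window the capitals mark the 228 bases that it shares with the window of *Hadha*, which is read from the other strand (chr5:30154931-30155230).
Myh4, chr11:67237562-67237861, plus strand: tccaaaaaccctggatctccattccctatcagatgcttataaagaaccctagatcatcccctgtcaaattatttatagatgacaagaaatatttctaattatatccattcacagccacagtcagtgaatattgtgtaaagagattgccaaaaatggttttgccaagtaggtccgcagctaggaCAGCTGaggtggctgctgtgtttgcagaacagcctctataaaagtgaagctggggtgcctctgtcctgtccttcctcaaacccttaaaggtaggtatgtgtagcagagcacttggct
Phka1, chrX:102644197-102644496, minus strand: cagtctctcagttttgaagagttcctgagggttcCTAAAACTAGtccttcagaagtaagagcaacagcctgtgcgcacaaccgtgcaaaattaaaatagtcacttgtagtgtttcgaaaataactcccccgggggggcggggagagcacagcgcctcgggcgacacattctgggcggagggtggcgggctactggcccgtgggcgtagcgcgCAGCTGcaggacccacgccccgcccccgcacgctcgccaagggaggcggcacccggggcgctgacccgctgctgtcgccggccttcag
Ldhb, chr6:142507908-142508207, minus strand: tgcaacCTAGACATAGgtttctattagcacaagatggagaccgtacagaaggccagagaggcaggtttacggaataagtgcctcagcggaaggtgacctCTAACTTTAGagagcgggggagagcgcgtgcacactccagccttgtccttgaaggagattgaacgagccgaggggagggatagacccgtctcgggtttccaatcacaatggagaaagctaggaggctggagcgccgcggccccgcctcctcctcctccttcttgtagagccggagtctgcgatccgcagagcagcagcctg
Acadm, chr3:153944594-153944893, minus strand: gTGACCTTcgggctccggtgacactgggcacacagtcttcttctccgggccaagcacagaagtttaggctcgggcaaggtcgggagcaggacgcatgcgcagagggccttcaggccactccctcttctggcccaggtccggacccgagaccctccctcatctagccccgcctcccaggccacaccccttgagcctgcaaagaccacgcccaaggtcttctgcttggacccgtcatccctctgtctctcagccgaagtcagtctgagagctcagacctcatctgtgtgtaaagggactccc
Hadhb, chr5:30155003-30155302, plus strand: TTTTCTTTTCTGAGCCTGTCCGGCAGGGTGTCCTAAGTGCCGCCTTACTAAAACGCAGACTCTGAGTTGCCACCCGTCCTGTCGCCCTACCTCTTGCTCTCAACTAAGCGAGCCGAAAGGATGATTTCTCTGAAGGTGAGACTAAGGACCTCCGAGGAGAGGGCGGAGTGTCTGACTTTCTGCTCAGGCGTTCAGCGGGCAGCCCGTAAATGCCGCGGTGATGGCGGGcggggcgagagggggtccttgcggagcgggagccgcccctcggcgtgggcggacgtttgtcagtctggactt

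CAGCTG was held by 16.3% of all 32851 windows, the MEF2 core by 3.69% and AAGGTCA by 4.72%. CAGCTG was in 4 of the 8 windows found for genes of fast glycolytic fibers, in 7 of 16 for glycogen metabolism, in 7 of 21 for slow fibers and in 1 of 18 for beta-oxidation, several windows belonging to the same gene in some cases. The slow list, whose genes were higher, and the glycogen list, most of whose genes were lower, thus both held it. AAGGTCA was in 1 of the 18 windows of beta-oxidation, that of *Acadm*, in 2 of 21 for slow fibers, in 1 of 8 for fast fibers and in 0 of 16 for glycogen metabolism, and the MEF2 core was in 2 of 16 for glycogen metabolism and in 1 of 21 for slow fibers. The *Phka1* window held both CAGCTG and the MEF2 core, and the *Ldhb* window held the MEF2 core at 2 places. A match is a description of these letters, and whether any protein binds there was not measured.

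Genes of calcium release and storage were mostly lower in KO diaphragm. In a muscle fiber the calcium for contraction is stored in the sarcoplasmic reticulum, released through the ryanodine receptor on a signal from the membrane and pumped back by the SERCA pumps. Of 25 genes of this system, 15 were lower and 4 higher (median -0.74). *Pvalb*, the calcium buffer of fast fibers, had log2 signals of 10.49, 10.95 and 11.35 in KO diaphragm and of 13.59, 13.57 and 13.53 in KO gastrocnemius (6.20-fold lower, log2 -2.63, SE 0.18, adjusted p = 1.74e-05). The genes of the release machinery were lower together: *Ryr1*, the release channel (-0.80), *Cacna1s*, its voltage sensor (-0.41), *Stac3* (-0.85) and the junctophilins *Jph1* (-1.19) and *Jph2* (-1.33), which hold the 2 membranes together. So were 3 genes of the calmodulin kinase CaMKII, *Camk2a* (-1.72), *Camk2g* (-1.38) and *Camk2b* (-0.83).

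Calcium storage and uptake split by the form of the protein. The slow and cardiac calsequestrin *Casq2* was at 10.83, 10.44 and 10.83 in KO diaphragm and at 7.94, 8.22 and 8.31 in KO gastrocnemius (5.82-fold, log2 2.54, SE 0.14), while the fast form *Casq1* was at 12.17, 11.99 and 12.19 against 13.12, 13.06 and 13.05 (log2 -0.96, SE 0.09). The slow pump *Atp2a2* was at 12.89, 13.03 and 13.01 against 10.91, 11.22 and 11.37 (3.52-fold, adjusted p = 1.53e-05). *Sln*, sarcolipin, a small inhibitor of the pump, was at 7.13, 6.64 and 7.20 against 5.21, 5.12 and 5.44 (3.34-fold). No array of these 4 genes overlapped between the muscles. The fast pump *Atp2a1* had a difference of -0.23 that missed the threshold (adjusted p = 0.054), and *Pln*, phospholamban, the other known inhibitor, one of 0.07.

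Channels and pumps of the surface membrane followed the same direction, with 12 of 18 genes lower and 2 higher (median -0.58). *Atp1b2*, a beta subunit of the sodium pump, was at 7.37, 7.36 and 7.47 in KO diaphragm and at 10.51, 10.48 and 10.42 in KO gastrocnemius (log2 -3.07, SE 0.08), whereas *Atp1b1*, another beta subunit, was higher by 1.14. *Cacng1*, a subunit of the voltage-gated calcium channel, was lower by -2.74, *Slc8a3*, a sodium and calcium exchanger, by -1.44, and *Clcn1*, the muscle chloride channel, by -1.01.

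Glycogen breakdown and glycolysis were lower in KO diaphragm at most of their steps. Of 15 genes of glycogen metabolism 11 were lower and 2 higher (median -0.64), and of 18 of glycolysis 12 were lower and 5 higher (median -0.56). The phosphorylase kinase, which switches on glycogen breakdown on a calcium signal, was lower in 3 of its subunits. *Phka1* had signals of 9.79, 9.80 and 9.56 in KO diaphragm and of 11.73, 11.74 and 11.79 in KO gastrocnemius (4.11-fold lower, log2 -2.04, SE 0.09, adjusted p = 2.46e-06). *Phkb* was lower by -2.06 and *Phkg1* by -1.77, and the arrays of all 3 genes stood clear of each other between the muscles. *Pygm*, the muscle phosphorylase itself, was lower by -0.62 and *Pgm1* by -1.42. The 2 glycogen genes that were higher were *Gbe1*, the branching enzyme (1.17), and *Pgm2* (0.73).

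In glycolysis the muscle forms were lower and some forms used in other tissues higher. *Pfkfb3*, which makes the activator of phosphofructokinase, was at 7.27, 7.87 and 7.40 in KO diaphragm and at 11.04, 10.53 and 11.05 in KO gastrocnemius (10.3-fold lower, log2 -3.36, SE 0.18). *Pfkm*, the muscle phosphofructokinase, was lower by -0.35 while *Pfkp* and *Pfkl*, its platelet and liver forms, were higher by 1.06 and 0.91. *Eno3* and *Pgam2*, the muscle enolase and phosphoglycerate mutase, were lower by -0.77 and -0.65, *Gpd1* by -1.57, *Bpgm* by -1.55 and *Fbp2* by -1.64. *Hk2*, hexokinase 2 (0.45), *Aldoc* (0.34) and *Pgam1* (0.80) were the remaining genes called higher, and each of these 3 calls was lost without at least 1 array. The number of higher glycolytic genes was 2 without diaphragm replicate 1 or gastrocnemius replicate 1 and 3 without diaphragm replicate 2 or gastrocnemius replicate 2 or 3.

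Lactate handling showed opposite differences in the genes of export and of use. *Slc16a3*, the lactate exporter MCT4 of glycolytic fibers, had signals of 6.38, 6.82 and 6.31 in KO diaphragm and of 10.68, 10.61 and 10.68 in KO gastrocnemius (17.8-fold lower, log2 -4.15, SE 0.13, adjusted p = 3.03e-07). *Slc16a1*, the transporter MCT1 of oxidative fibers, was at 10.43, 10.24 and 10.31 against 8.68, 8.74 and 8.91 (2.92-fold higher). *Ldhb*, the heart form of lactate dehydrogenase, was at 11.68, 11.50 and 11.63 against 9.79, 10.04 and 9.47 (3.57-fold higher), and *Ldha*, the muscle form, was 2.24-fold lower. All 4 genes were without overlap. Subunits of pyruvate dehydrogenase were higher, *Dlat* by 0.64, *Pdha1* by 0.49 and *Pdhb* by 0.48.

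Fatty acid oxidation was higher in KO diaphragm along its whole course. Of 21 genes of beta-oxidation 19 were higher and none was lower (median 0.91), and of 15 genes of fatty acid uptake and activation 10 were higher and 2 lower (median 0.75). Among the genes of uptake, *Fabp3*, the fatty acid binding protein of heart and muscle, had signals of 12.88, 12.86 and 12.91 in KO diaphragm and of 11.33, 11.56 and 11.18 in KO gastrocnemius (2.88-fold, log2 1.52, SE 0.11, adjusted p = 1.85e-05). *Lpl*, lipoprotein lipase, was higher by 1.55, *Acsl5* by 1.50, the fatty acid transporter *Cd36* by 1.15 and the carnitine carrier *Slc25a20* by 0.96. The 2 lower genes were *Acsl6* (-1.47) and *Acsl4* (-0.85), which like *Acsl5* encode enzymes that activate long-chain fatty acids.

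The acyl-CoA dehydrogenases, which carry out the first step of each round, were higher for long chains (*Acadl*, 1.22, and *Acadvl*, 1.04), for medium chains (*Acadm*, 0.78) and for short chains (*Acads*, 0.57). *Acadl* was at 11.78, 11.55 and 11.81 in KO diaphragm against 10.50, 10.66 and 10.33 in KO gastrocnemius. *Acaa2*, the thiolase of the last step, was at 11.67, 11.56 and 11.84 against 10.41, 10.50 and 10.19. *Hadha* and *Hadhb*, the subunits of the trifunctional protein whose promoter windows overlap, were higher by 1.06 (SE 0.11) and 1.07 (SE 0.11), and the order of the arrays was the same for both: replicates 3, 1 and 2 in diaphragm and 2, 1 and 3 in gastrocnemius. The electron acceptors *Etfdh* (1.14) and *Etfb* (0.91) and the ketone body enzyme *Oxct1* (1.23) were also higher. The genes not called were *Acaa1a* (0.10) and *Ehhadh* (0.06), both of peroxisomes. Some genes of uptake are also used by fat cells and endothelium, and markers of both cell types, given below, were higher on the same arrays; their part in the result was not tested.

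The citric acid cycle and the respiratory chain differed less. In the cycle 13 of 17 genes were higher and none was lower (median 0.38), led by *Idh2*, the mitochondrial isocitrate dehydrogenase that makes NADPH, with signals of 12.21, 12.21 and 12.39 in KO diaphragm and of 10.72, 10.99 and 10.58 in KO gastrocnemius (2.84-fold, log2 1.51, SE 0.12). After median centring 8 of the 17 were called higher. Citrate synthase, *Cs*, had a difference of 0.26 that was not called. Of 79 nuclear genes of the 5 respiratory complexes 36 were higher and 7 lower (median 0.25), or 22 and 9 after median centring, against 17.7% and 11.5% of all genes. By complex the median was 0.18 for complex I (13 of 35 higher, 2 lower), 0.41 for complex II (4 of 4 higher), 0.19 for complex III (4 of 9 higher, 2 lower), 0.29 for complex IV (6 of 14 higher) and 0.27 for complex V (9 of 17 higher, 3 lower). After median centring these medians were 0.05 (6 higher, 4 lower), 0.28 (2 higher), 0.06 (3 higher, 2 lower), 0.17 (6 higher) and 0.14 (5 higher, 3 lower). Without 1 array the calls in complex I fell from 13 higher to 8 (gastrocnemius replicate 3), those in complex II from 4 to 2 (diaphragm replicate 3 or any gastrocnemius replicate), and the lower calls over all complexes from 7 to 3 or 4 (diaphragm replicate 2, gastrocnemius replicate 1 or 3). The median difference of beta-oxidation, 0.91, stood above that of each respiratory complex.

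Within cytochrome *c* oxidase, the complex that lacks its COX6A2 subunit here, no measured subunit was lower. *Cox8b*, like *Cox6a2* a heart and muscle form, was at 12.33, 12.25 and 12.18 in KO diaphragm and at 11.58, 11.54 and 11.58 in KO gastrocnemius (1.61-fold, log2 0.69, SE 0.08). *Cox8a* (0.58), *Cox7a2* (0.57), *Cox6c* (0.57), *Cox6b1* (0.50) and *Cox4i1* (0.41) were the others called higher. *Cox7a1*, another muscle form, had a difference of 0.24 (adjusted p = 0.0669), and *Cox6a1*, the form of other tissues that pairs with *Cox6a2*, one of 0.34 that was not called either. The genes lower in the other complexes encode small subunits, such as *Ndufb2* (-0.49), *Uqcr11* (-0.40) and *Atp5e* (-0.44), and several of these calls were lost without 1 array: that of *Ndufb2* without gastrocnemius replicate 1 (adjusted p = 0.0516), of *Uqcr11* without gastrocnemius replicate 1 (adjusted p = 0.0508), and of *Atp5e* without diaphragm replicate 2 or gastrocnemius replicate 3 (adjusted p = 0.0963 and 0.0746).

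Enzymes that buffer ATP were called in both directions. Mitochondrial creatine kinase, *Ckmt2*, was higher by 0.92, the creatine transporter *Slc6a8* by 0.76 and the adenine nucleotide carrier *Slc25a5* by 1.26, whereas AMP deaminase, *Ampd1*, was lower by -1.64 and *Gamt*, the last enzyme of creatine synthesis, by -1.14. Of the 16 genes of this list 6 were higher and 6 lower, and the median of 0.07 was -0.06 after median centring. Among 17 peroxide and superoxide enzymes 8 were higher and 1 was lower (median 0.36), with *Cat*, catalase, at 0.82, *Prdx2* at 0.75 and mitochondrial *Sod2* at 0.59. *Mb*, myoglobin, the oxygen store of oxidative fibers, was higher by 0.77, in a list of iron and oxygen storage with 5 of 12 genes higher and 2 lower. Of 8 small heat shock protein genes 1 (12.5%) was higher and 3 (37.5%) were lower, against 17.7% and 11.5% of all genes.

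**Figure D4:**
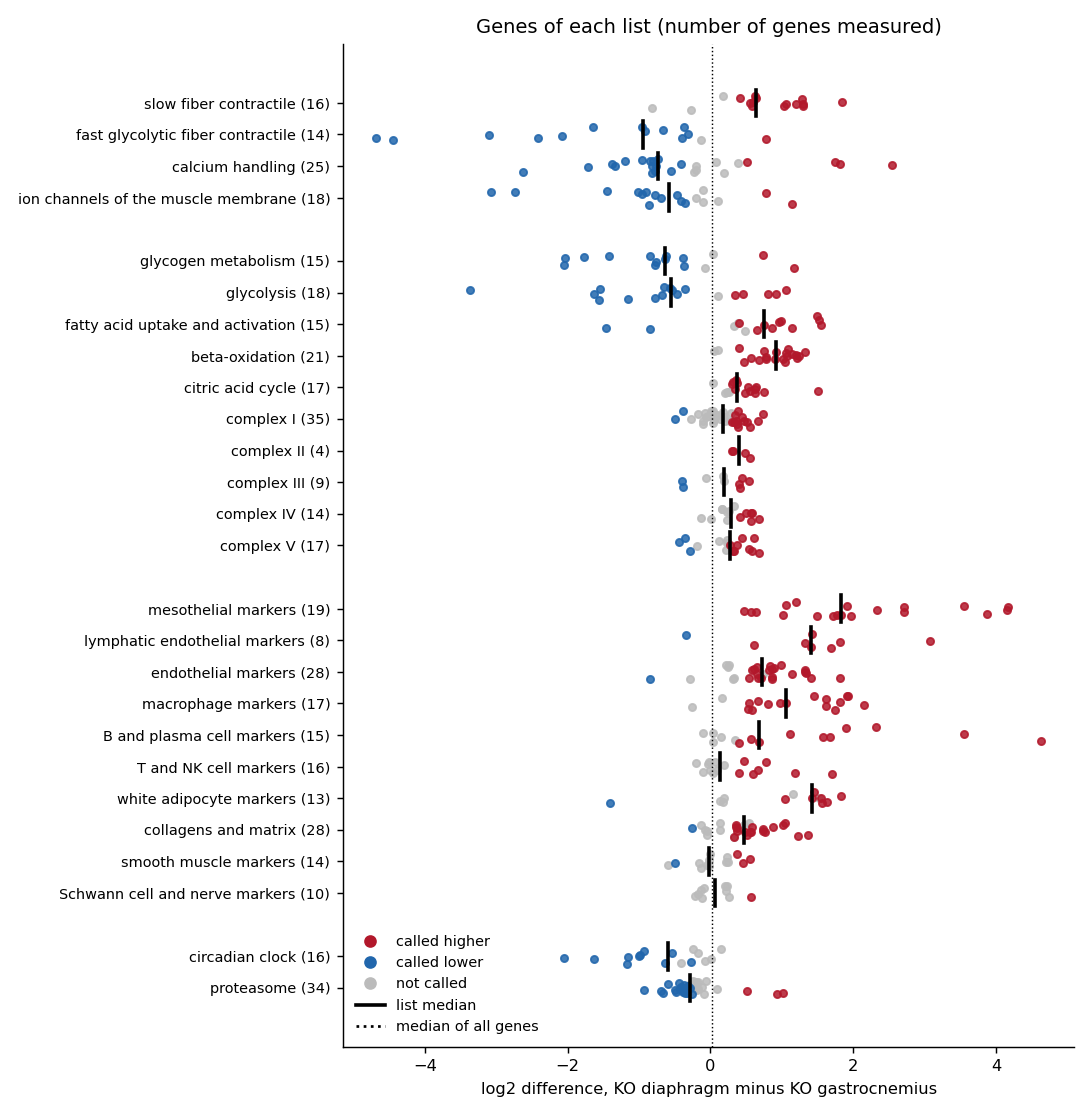
Log2 difference, KO diaphragm minus KO gastrocnemius (horizontal axis), of the genes of 26 lists (rows, with the number measured); dots are genes coloured by their call, thick bars are list medians, and the dotted line is the median of all genes, 0.02. Lists of fast fibers and glycogen lie to the left, beta-oxidation (median 0.91) lies to the right of the respiratory complexes, and mesothelial markers reach furthest to the right as a group, with a median of 1.82.

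The subunit genes of AMP-activated kinase, a sensor of low energy, differed in both directions between the 2 muscles. Of 17 genes of this kinase and of glucose uptake, 4 were higher (2 without gastrocnemius replicate 1) and 6 lower. *Prkag3*, the gamma subunit of glycolytic fibers, was at 6.78, 6.21 and 6.50 in KO diaphragm and at 9.84, 9.74 and 9.94 in KO gastrocnemius (10.2-fold lower, log2 -3.34, SE 0.14, adjusted p = 1.42e-06). *Prkab2* was at 7.58, 7.19 and 7.96 against 10.29, 10.31 and 10.30 (6.60-fold lower). *Prkaa2* was lower by -0.68, and *Prkag1* was higher by 0.55. Of the 2 Rab regulators of glucose transport, *Tbc1d1* was lower by -1.72 and *Tbc1d4* higher by 1.42, both without overlap, while *Slc2a4*, the transporter GLUT4, had a difference of 0.07.

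Regulators of fiber type were called in both directions, 10 of 41 (24.4%) higher and 13 (31.7%) lower, against 17.7% and 11.5% of all genes. Among factors known to drive fast glycolytic genes, or their relatives, *Eya4* (-2.37), *Six2* (-2.09), *Maf* (-1.73), *Mafa* (-1.02), *Tbx15* (-0.55) and *Eya1* (-0.44) were lower, and so was *Sox6* (-1.07), a repressor of slow genes, while *Six4* (-0.12) was not called. *Eya4* had signals of 6.40, 6.33 and 6.78 in KO diaphragm and of 8.82, 8.76 and 9.03 in KO gastrocnemius. Among those known to drive mitochondrial and fatty acid genes, *Ppargc1a*, the coactivator PGC-1alpha, was at 10.57, 9.98 and 9.46 against 8.29, 8.98 and 8.73 (2.52-fold, log2 1.33, SE 0.26, adjusted p = 0.00489), with a spread of about 1 among its diaphragm arrays. *Ppara*, a nuclear receptor for fatty acids, was higher by 1.72, and the estrogen-related receptors *Esrrb*, *Esrrg* and *Esrra* by 1.57, 0.89 and 0.41, while *Ppargc1b* (0.08) and *Ppard* (-0.10) were not called. *Prox1*, a factor of slow fibers, was higher by 1.32 and *Fhl2* by 1.71. *Prox1* is also on the lists of endothelial and lymphatic endothelial markers given below, most of which were higher. From which cells its signal came was not tested. The corepressor *Nrip1* was lower by -0.97. The genes *Mef2a* (-0.05), *Mef2c* (-0.10) and *Mef2d* (-0.15) were not called.

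Genes of growth and of the motor endplate differed one by one: of 23 myogenic and satellite cell genes 8 were higher (5 without gastrocnemius replicate 1 or 2) and 4 lower, and of 16 genes of the neuromuscular junction 5 and 3. The shares higher and lower were 34.8% and 17.4% for the former and 31.2% and 18.8% for the latter, against 17.7% and 11.5% of all genes. *Mstn*, myostatin, which restrains muscle growth, was at 7.10, 6.002 and 7.07 in KO diaphragm and at 9.75, 9.77 and 9.81 in KO gastrocnemius (8.30-fold lower, log2 -3.05, SE 0.25, adjusted p = 4.37e-05). *Pax3*, a marker of a subset of satellite cells, was at 6.78, 6.58 and 7.22 against 5.53, 5.36 and 5.38 (2.70-fold higher), while *Pax7*, the general satellite cell marker, had 0.11 and was not called. At the endplate, the kinase gene *Musk* was lower by -1.10 and the receptor subunit *Chrne* by -0.67, and *Agrn*, its nerve and muscle organiser agrin, was higher by 0.93. The median of the junction list was 0.12, or -0.01 after median centring. In polyamine metabolism (1 of 9 higher, 3 lower, or 11.1% and 33.3%) *Odc1*, ornithine decarboxylase, was lower by -1.57 beside *Smox*.

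The position of each muscle along the body was read from Hox genes, transcription factors that mark levels from the head (low paralog numbers) to the tail (high paralog numbers). Of 37 Hox genes 6 (16.2%) were higher and 11 (29.7%) lower in KO diaphragm, so that the share of higher genes was no greater than the 17.7% of all genes. The higher genes were *Hoxa3*, *Hoxb4*, *Hoxc4*, *Hoxa5*, *Hoxc5* and *Hoxc6*, and the 11 lower genes all belonged to paralog groups 8 to 13, a boundary set after the values were seen. *Hoxa5* was at 8.03, 7.77 and 7.70 in KO diaphragm and at 6.09, 6.05 and 5.90 in KO gastrocnemius (3.53-fold, log2 1.82, SE 0.11). *Hoxc10* was at 4.53, 3.82 and 4.18 against 8.44, 8.52 and 8.63 (20.4-fold lower, log2 -4.35, SE 0.16, adjusted p = 6.07e-07), and *Hoxd8* at 5.14, 5.19 and 5.19 against 7.94, 8.16 and 8.04 (7.32-fold lower). None of these 3 genes overlapped between the muscles. After median centring 5 Hox genes were higher and 16 lower, among them 3 of groups 1 to 7, and after quantile normalization 5 and 15.

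**Figure D5:**
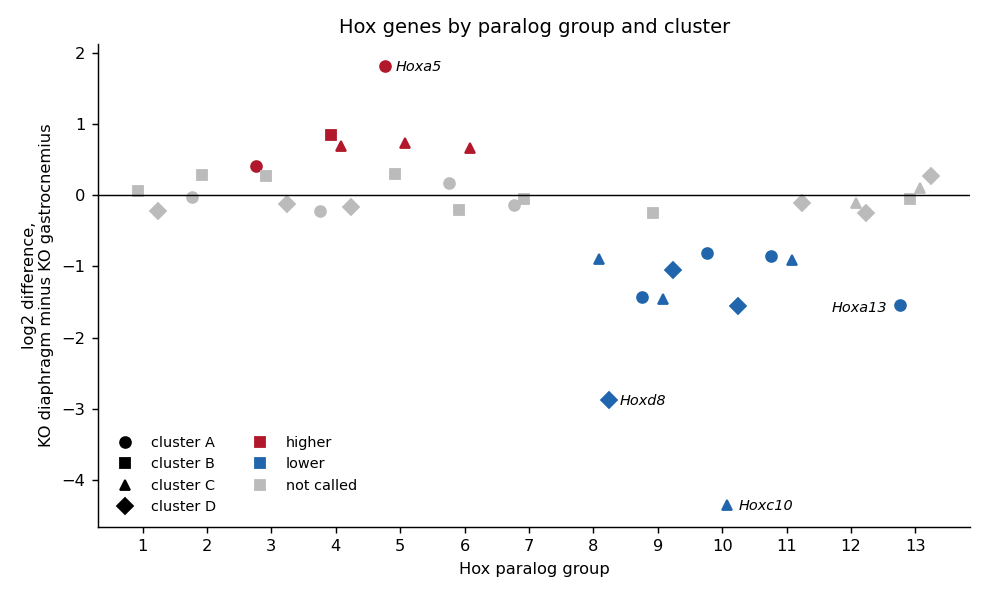
Log2 difference, KO diaphragm minus KO gastrocnemius (vertical axis), of 37 Hox genes by paralog group (horizontal axis), with the 4 clusters as symbols and the call as colour. The 6 genes called higher are in groups 3 to 6, and the 11 called lower are in groups 8 to 13, with *Hoxc10* at -4.35.

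Of 42 other factors of limb and muscle position 11 were higher and 4 lower. *Meis2*, a partner of Hox proteins, was at 7.71, 7.86 and 8.20 in KO diaphragm and at 5.24, 5.33 and 5.10 in KO gastrocnemius (6.49-fold). *Tbx1*, a factor of head and neck muscle, was higher by 2.57, *Tbx3* by 1.75 and *Gata6* by 1.19. *Sim2* was lower by -1.77, *Lbx1*, a factor of migrating limb muscle precursors, by -1.08 and *Tbx4*, a hindlimb factor, by -0.40. *Pitx1*, another hindlimb factor (-0.01), and *Tbx5*, a forelimb factor (0.18), were not called. The median of this list was 0.05, and it was -0.08 after median centring and -0.06 after quantile normalization.

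Mesothelium, the cell sheet on the faces of the diaphragm, was the clearest of the other cell types: 19 of 19 measured markers were higher in KO diaphragm, with a median of 1.82, 18 of them also after median centring and after quantile normalization. The mean log2 signal over the list was 7.13 to 7.72 on the diaphragm arrays and 5.34 to 5.38 on the gastrocnemius arrays. *Upk3b* was at 8.82, 9.80 and 9.30 against 5.17, 5.30 and 5.003 (17.8-fold, log2 4.15, SE 0.21, adjusted p = 3.54e-06), *Gpm6a* at 8.91, 9.59 and 9.33 against 5.22, 4.96 and 5.13, and *Wt1*, a transcription factor of mesothelium, at 6.81, 7.47 and 6.95 against 5.27, 5.49 and 5.34. Diaphragm replicate 2 was the highest and replicate 1 the lowest array for all 3 genes. Lymphatic endothelium, which drains the peritoneal cavity through the diaphragm, had 7 of 8 markers higher (median 1.42), with *Mmrn1* at 8.16, 8.50 and 8.27 against 4.94, 5.28 and 5.48 and *Lyve1* higher by 1.81. Of 28 endothelial genes, some of them shared with other lists, 20 were higher and 1 was lower (median 0.72), with *Kdr* at 1.33 and *Pecam1* at 0.83.

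Macrophage, MHC class II and B and plasma cell genes were higher and varied between the diaphragm arrays. Macrophage markers were higher in 15 of 17 (median 1.06), among them *Timd4* (1.75), which marks resident macrophages of the serous cavities, and *C1qa* (1.44). *Itgam* was at 8.80, 7.85 and 6.87 in KO diaphragm and at 5.52, 5.76 and 5.78 in KO gastrocnemius, highest in replicate 1. Genes of MHC class II were higher in 5 of 9 (median 1.11), T and NK cell markers in 7 of 16 (median 0.14) and mast cell markers in 4 of 9 (median 0.20). Without gastrocnemius replicate 3 these counts were 4 and 2, and without gastrocnemius replicate 2 that of T and NK cells was 4. The median of T and NK cells was 0.04 without diaphragm replicate 3 and 0.01 after median centring, with 1 marker lower, and that of mast cells was 0.12 without diaphragm replicate 1 and 0.07 after median centring. B and plasma cell markers were higher in 10 of 15 (median 0.67), with *Cxcl13* at 7.79, 10.09 and 9.41 against 5.63, 5.52 and 5.47 and the B cell antigen *Ms4a1* at 5.67, 6.86 and 6.84 against 4.26, 3.92 and 4.24. *Jchain* was at 3.73, 10.73 and 10.07 against 3.50, 3.51 and 3.62, so that diaphragm replicate 1 stood near the gastrocnemius arrays and the other 2 far above them. Its call (adjusted p = 0.0423) was lost without diaphragm replicate 2 (0.144) or 3 (0.129) and without gastrocnemius replicate 1 (0.0991), 2 (0.0976) or 3 (0.101), all as adjusted p. The mean signal of the macrophage list was 7.02 to 7.43 on the diaphragm arrays and 5.93 to 6.10 on the gastrocnemius arrays, and that of the B and plasma cell list 5.21 to 6.25 and 4.54 to 4.57. The part of immune cells in other differences was not tested.

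Fat, collagen and fibroblast genes were higher as well. White adipocyte markers were higher in 7 of 13 and lower in 1 (median 1.43), but the diaphragm arrays differed: *Adipoq*, adiponectin, was at 7.69, 9.15 and 6.83 in KO diaphragm against 5.66, 6.18 and 6.33 in KO gastrocnemius, and its call (1.83, adjusted p = 0.0175) was lost without gastrocnemius replicate 1 (adjusted p = 0.064). The mean signal of the list was 7.81 to 8.98 on the diaphragm arrays and 7.24 to 7.55 on the gastrocnemius arrays, and the list median was 0.88 without diaphragm replicate 2. Without gastrocnemius replicate 1 the number of higher markers was 4. Of 28 collagen and matrix genes 18 were higher and 1 lower (median 0.48), with *Bgn* at 1.36 and *Col3a1* at 1.01, and of 14 fibroblast markers 9 were higher and 1 lower (median 0.56), with *Dpp4* at 1.77. Smooth muscle markers (3 of 14 higher, 1 lower) had a median of -0.01, which ranged from -0.12 to 0.08 without 1 array, and tendon markers (3 of 16 higher, none lower, or 6 lower without diaphragm replicate 2) one of -0.14, which ranged from -0.38 without diaphragm replicate 2 to 0.08 without diaphragm replicate 1. Schwann cell markers (1 of 10 higher) had a median of 0.06, or -0.07 after either scaling. Red cell markers were higher in 1 of 3. The hepatocyte gene *Alb*, albumin, was at 7.07 on gastrocnemius replicate 3 against 3.93 to 4.85 on the other 5 arrays, and 2 of 11 hepatocyte markers were called higher, or 0 after median centring. The shares called higher of smooth muscle (21.4%), tendon (18.8%) and hepatocyte markers (18.2%) were near the 17.7% of all genes. Among heart muscle markers 4 of 15 were higher (2 without diaphragm replicate 2) and 2 lower. Beside *Tecrl* the higher genes were *Gja1*, a gap junction gene (1.30), *Actc1*, cardiac actin (1.22), and *Myh6*, the alpha myosin heavy chain (0.36), and the lower ones *Myl4* (-0.65) and *Sbk2* (-0.49). The call of *Actc1* was lost without diaphragm replicate 1, 2 or 3 (adjusted p = 0.107, 0.0592 and 0.0866), and that of *Myh6* without diaphragm replicate 2 or gastrocnemius replicate 1 or 2 (adjusted p = 0.0584, 0.0598 and 0.0675). The heart genes *Nppa* (-0.16) and *Tnni3* (-0.04) were among the 9 not called.

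Genes that follow the time of day and handling also differed. Of 16 genes of the circadian clock and its output 10 were lower and none was higher in KO diaphragm (median -0.59). *Bhlhe41*, a repressor within the clock, was at 7.67, 7.55 and 7.50 in KO diaphragm and at 9.59, 9.54 and 9.76 in KO gastrocnemius (4.16-fold lower, log2 -2.06, SE 0.09), while *Ciart* was at 6.76, 5.69 and 4.95 against 6.94, 7.86 and 7.49. The diaphragm arrays of *Ciart* spread widely, and its call (adjusted p = 0.0136) was lost without gastrocnemius replicate 2 (adjusted p = 0.0522). The core activators *Arntl* (0.00) and *Clock* (0.15) were not called. The number of lower clock genes was 6 without gastrocnemius replicate 2 or 3, and the list median ranged from -0.74 to -0.40 without 1 array. Of 24 immediate-early genes 6 were lower (3 without diaphragm or gastrocnemius replicate 1 or 2) and none was higher: *Fos* was at 7.40, 7.24 and 8.21 against 8.89, 8.77 and 8.18, with overlapping arrays, but on the WT gastrocnemius arrays it was at 6.62, 6.28 and 6.29, below KO diaphragm. Its call (adjusted p = 0.0176) was lost without diaphragm replicate 1 or 2 or gastrocnemius replicate 1 or 2 (adjusted p = 0.0511, 0.067, 0.0662 and 0.0609). Stress genes went both ways, 6 of 20 higher and 8 lower (5 without gastrocnemius replicate 2), with *Ddit4*, an inhibitor of the growth kinase mTOR, at -2.01, *Chac1* at -2.04, *Asns*, asparagine synthetase, at 1.10 and *Sesn1* at 1.05. The times of dissection of the 2 muscles were not given in the sources used here.

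Subunits of the proteasome divided by kind. Of 34 genes 18 were lower and 3 higher in KO diaphragm (median -0.29). The 3 higher genes were *Psmb8* (1.01), *Psmb9* (0.94) and *Psmb10* (0.51), the subunits that replace their constitutive counterparts in immune cells, and none of the other 31 was higher, *Psmd8* being lowest (-0.93). The division was made after the values were seen, and immune markers were higher on the same arrays; their part was not tested. Cytosolic ribosomal proteins (6 of 53 higher, 9 lower, median -0.07, with 3 to 7 higher and 4 to 8 lower without 1 array) and mitochondrial ribosomal proteins (10 of 77 higher, 7 lower, median 0.05) showed less, and the median of the latter was -0.08 after median centring. In the dystrophin complex and costamere 2 of 23 genes (8.7%) were higher, *Utrn* (0.67) and *Tln1* (0.51), and 8 (34.8%) lower, or 2 to 6 lower without 1 array.

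The arrays also carry probe sets for microRNA precursors. Of 296 measured, 40 (13.5%) were lower and 11 (3.72%) higher in KO diaphragm, against 11.5% and 17.7% of all genes, and 5 (1.69%) were lower by more than 2-fold, against 1.44%. The shares of lower genes were thus near those of all genes. These were *Mir1a-2* (-1.58), *Mir1a-1* (-1.47), *Mir133a-1* (-1.45), *Mir133a-2* (-1.35) and *Mir1839* (-1.04), chosen after their values were seen. The first 4 are the precursors of the muscle microRNAs miR-1 and miR-133, which are made from shared transcripts in pairs. *Mir1a-1* was at 5.22, 4.81 and 4.80 in KO diaphragm and at 6.08, 6.74 and 6.42 in KO gastrocnemius, and *Mir133a-2* at 4.90, 4.52 and 4.15 against 5.51, 6.22 and 5.88, without overlap in either. Signals of this size are below the median gene, 6.12, and the probes do not tell a precursor from its longer transcript.

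The same muscle difference was finally set beside that of the arrays with WT labels, by the interaction term of a fit over all 4 groups, for a panel of 35 measured genes. The interaction was called in 26 of them, and in 14.8% of all genes. The panel was chosen with earlier results of these data known and holds genes with large differences between the KO muscles. Its share therefore cannot be compared with that of all genes. *Myh4* differed by -4.68 between the KO muscles and by -0.07 between the groups labelled WT, and *Hoxc10* by -4.35 and 0.24. *Ppargc1a* (1.33 and 0.90) and *Esrrg* (0.89 and 0.75) were among the 9 genes whose interaction was not called (adjusted p = 0.558 and 0.537). When the WT gastrocnemius arrays took the place of KO gastrocnemius, so that genotype entered the contrast, 3314 genes were higher and 1832 lower in KO diaphragm, and *Myh4*, *Slc16a3*, *Hoxc10*, *Upk3b*, *Casq2* and *Ldhb* lay on the same side, as the plot of signals by array shows.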

How the data were processed

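Total RNA of each muscle was labelled and hybridised to mouse Gene 1.0 ST arrays, and the authors processed all 12 arrays with RMA (RMA sketch, Affymetrix Expression Console), which corrects background, normalizes between arrays and summarises probes. The deposited values are therefore log2 signals, and they hold no depth and no detection calls, so that differences of dim genes may be compressed. Of 35556 probe sets, 21789 carry 1 gene symbol in the platform annotation, 1621 carry several and 12146 none, and only the first were used. For the 999 genes with several probe sets the brightest was taken, which left 19938 genes.

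KO diaphragm and KO gastrocnemius were compared with limma 3.58.1 in R 4.3.3 (lmFit, eBayes, 4 residual degrees of freedom, no covariate, Benjamini-Hochberg adjusted p under 0.05). In data simulated for this comparison over 19938 genes, the same fit called 85 of the 100 genes given a log2 change of 1 and 32 of the 100 given 0.5. It made 2 false calls among the other 19738 genes, which were left unchanged. In the real data 29.3% of genes were called, a far larger share, so that these rates may not carry over. The genes and the 52 gene lists were chosen with earlier results of these data known, so that lists are described by counts and medians. Genes were named from a panel, the 15 highest and 15 lowest called genes without overlap, the 15 isoform pairs, and up to 5 called genes per list and direction. Others were named after their values were seen. Predicted, olfactory receptor and immunoglobulin chain genes were skipped among the 15 highest and 15 lowest. The alternatives changed the fit (all 4 groups, the replicate number as a fixed block or, with statmod 1.5.0, a random block, a trended and robust eBayes, the methods' t-test), the values (median centring, quantile normalization, averaged probe sets, dim genes left out) or the arrays (each left out in turn, or gastrocnemius taken from WT). Promoter windows are from RefSeq. Figures were drawn with matplotlib 3.10.9.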

Additional observations from a re-analysis of the deposited data

Results flagged for a closer look

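For 26 of the 35 panel genes the difference between the muscles was not the same in KO mice as between the groups labelled WT (limma, interaction term of the fit over 4 groups, adjusted p under 0.05). The interaction, the difference in KO minus that between the groups labelled WT on the log2 scale, was negative for *Myh4* -4.61, *Hoxc10* -4.59, *Actn3* -4.43, *Slc16a3* -4.19, *Prkag3* -3.22, *Pvalb* -2.61, *Ldha* -1.10, *Casq1* -1.07, *Pygm* -0.61, *Tbx15* -0.59 and *Tnni2* -0.42. It was positive for *Upk3b* 4.23, *Msln* 2.64, *Casq2* 2.44, *Sln* 2.07, *Atp2a2* 2.01, *Myh7* 1.65, *Ldhb* 1.63, *Idh2* 1.56, *Hoxa5* 1.46, *Fabp3* 1.20, *Acadl* 1.11, *Cd36* 1.03, *Myh1* 0.74, *Mb* 0.57 and *Cox7a1* 0.43. The arrays labelled WT diaphragm correlated with both gastrocnemius groups at 0.988 to 0.992 and with KO diaphragm at 0.963 to 0.975, and whether they hold diaphragm RNA was not tested.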

How the results depend on the processing

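Of 348 named genes that were called, 253 kept the call under every limma alternative in which they were tested, 95 lost it under at least 1, and 7 reversed with WT gastrocnemius arrays: *Atf3* (0.10), *Fos* (1.22), *Fosb* (0.37), *Gadd45g* (0.37), *Ppp1r3c* (0.0647), *Uqcr10* (0.12) and *Uqcr11* (0.028). The alternative without genes dimmer than the median gene did not test 34 named genes. Over all genes the methods' t-test called 2002 higher and 1476 lower after Benjamini-Hochberg adjustment, and median centring 4388 lower. Leaving out 1 array gave 2634 to 3283 higher and 1674 to 2135 lower genes. With the replicate number as a block 3322 genes were higher and 2067 lower. The deviations of same-numbered arrays correlated at -0.005, 0.025 and -0.008. With so few arrays per group these values cannot decide whether same-numbered arrays share a mouse, and the labels do not say.

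Under median centring the list medians were -0.77 for glycogen metabolism, -0.68 for glycolysis (3 genes higher), 0.25 for the citric acid cycle (8 higher), -0.72 for the clock, -0.45 for the proteasome other than its immune subunits, -1.003 for Hox groups 8 to 13 and 0.0509 for groups 1 to 7, and 22 respiratory chain genes were higher. The medians of the neuromuscular junction (-0.0095) and of the position factors (-0.0801) turned negative there, the latter also under quantile normalization (-0.0574), which gave -0.98 and 0.0548 for the 2 Hox groups. Among genes no dimmer than the median gene the medians were 2.34 for mesothelial, 1.90 for B and plasma cell (2 higher) and 1.62 for macrophage markers, -1.45 (7 lower) for Hox groups 8 to 13 and 0.29 for groups 1 to 7. With WT gastrocnemius arrays they were 0.60 for the citric acid cycle, 1.62 for mesothelial markers, -0.79 for the clock, 0.45 for the respiratory chain (55 higher, 0 lower), -0.0205 for position factors and -0.0307 for Hox groups 1 to 7, and 3 glycolytic genes were higher. Without 1 array, 2 to 5 glycolytic genes were higher, 6 to 10 clock genes lower (median -0.74 to -0.40) and 3 to 7 respiratory chain genes lower, and the macrophage median was 0.89 to 1.34. Causes were not tested. With 3 arrays per group the precision is limited, and dim genes lack a detection call.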
